A study of Oryza sativa with 156 samples.

Results

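The genes described here are 150 rice leaf genes whose counts were close to control early in drying and low at the end of it, in a moderate and in a severe drought course alike. Both features were the rule by which they were chosen, from 55986 identifiers in all. The measure was L, the log2 of 1 + CPM (counts per mega count, M, of the library total), and D, the mean L of drought libraries minus the mean L of control libraries. Identifiers with a mean of at least 5 CPM numbered 12067. Of these, 3531 had a D within 0.2 of 0 both on days 1-4 of the moderate course and on days 3-5 of the severe course. The 150 with the lowest value of the larger of their D on days 9-12 in the 2 courses are the members. The difference on days 1-4 (moderate), 3-5 (severe) and 9-12 (both) is therefore a description with no test. Tests were made on the days between, which the choice did not use.

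A leaf that runs short of water closes its stomata, and its cells sense both the loss of turgor and the hormone abscisic acid. Genes that respond directly to abscisic acid or to dehydration are known to change early, while genes of growth and of photosynthesis are often turned down as stress lasts. The files do not pair these identifiers with names or products, so no member is given a name or a role, and none of these classes was assigned to a member.

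Leaf polyA RNA of the cultivar IR64 was sequenced on each day from day 0 to day 12 in 2 courses. The groups were moderate drought, for which the supply of water ended 14 days after sowing and the pots drained through their hose, and severe drought, for which the pots also stood higher than the hose and drained faster, each with its own irrigated control. This gave 52 groups of 3 libraries, with 39 libraries in each arm of a course. The series title names biomarker genes of drought perception as the aim, and the question put to these members is when in the middle of each course their counts became lower in drought. Whether replicates were separate plants is not stated in the labels, and the p-values cover only the spread between these libraries, which may be technical. In whole leaf tissue, fewer cells of a type and less RNA per cell cannot be told apart. The tissue label was not checked against leaf markers here, because no identifier has a name.

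Total counts ranged from 6.42 to 26.2 M per library with a median of 16.8 M. All 11684 identifiers of chromosomes 10, 11 and 12 have a count of 0 in every library, so every member lies on chromosomes 1 to 9 and every total leaves those chromosomes out. Libraries of the severe course fall into 2 sets by the level of 3 genes (LOC_Os01g57960, LOC_Os01g49370 and LOC_Os06g39708). Their mean L was at least 6.091 in the higher set and at most 5.441 in the other. The library at 5.441 was a severe control of day 0 and lay between the sets. The next highest severe library of the lower set had 4.45. The higher set holds 18 severe drought libraries (days 0 to 5), a single moderate drought library (day 0) and 30 severe control libraries (days 3 to 12). On days 0-2 and on days 6-12 severe drought and severe control are therefore in different sets. Results of days 6-12 are also given against moderate controls, which lie in the same set as the drought libraries of those days.

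The chosen falls were mostly shallow. On days 9-12 the member D had a median of -0.48 in the moderate course, with a range of -2.12 to -0.37, against a median of -0.112 over the 3381 other identifiers kept by the level and flat-day limits. In the severe course the median was -0.62 and the range -2.25 to -0.37, against a median of -0.095 over the others. Only 2 members had a D below -1 in the moderate course and 14 in the severe course. The difference in the severe course was the deeper one in 119 members and the moderate one in 31. The severe arms of these days lie in different library sets. Severe and moderate drought differed by a median of -0.01, while severe control lay a median of 0.10 above moderate control. The part of the set in the deeper difference was not tested. LOC_Os02g18850, the last member taken, had a larger D of -0.3671, and LOC_Os03g50520, the first one left out, had -0.3661, so the list ends in a continuum.

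**Figure D1:**
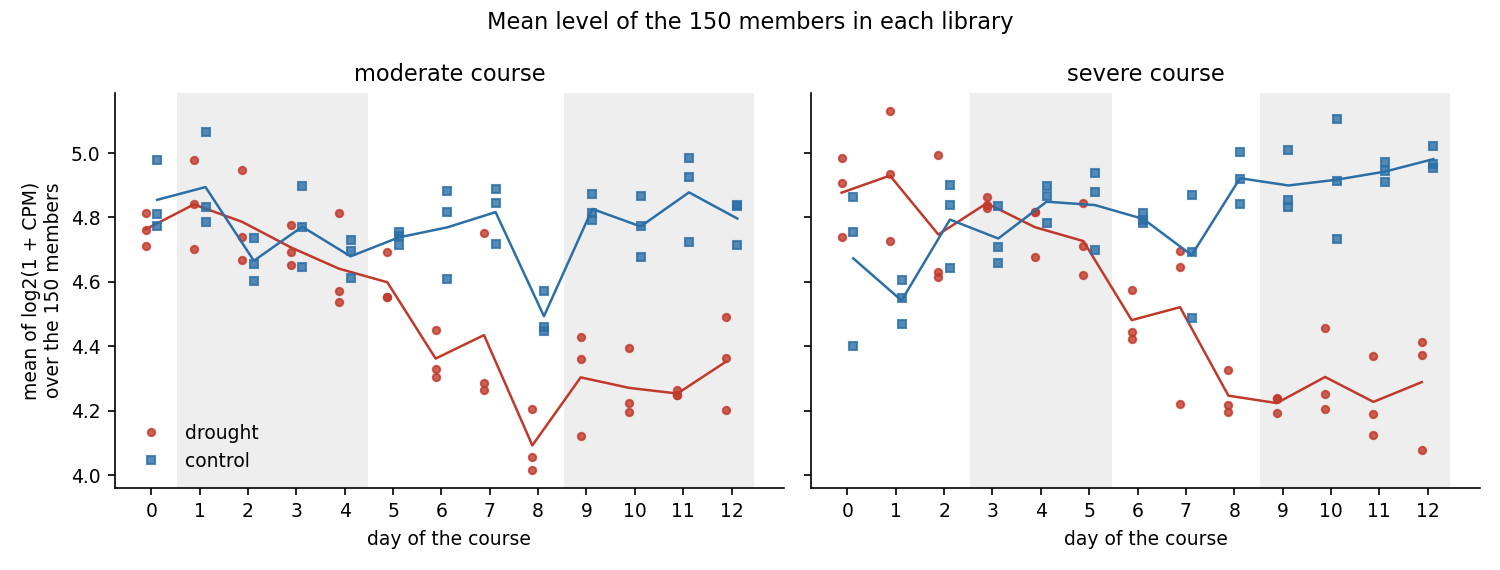
Mean of log2(1 + CPM) over the 150 members in each library (points) and its daily mean (lines), by day of the moderate and the severe course, in drought (red circles) and control (blue squares). Grey bands mark the days that chose the members; between them the drought libraries leave the control level on days 5-6, with 1 moderate and 2 severe drought libraries of day 7 near control.

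The mean L over the members shows how far single libraries separated. On days 9-12 it was 4.12, 4.26 and 4.49 (lowest, median and highest of 12 libraries) in moderate drought, against 4.68, 4.82 and 4.99 in moderate control. In the severe course it was 4.08, 4.24 and 4.46 in drought, against 4.73, 4.95 and 5.11 in control. The arms did not overlap in either course on these days. On the flat days they overlapped: 4.54, 4.72 and 4.98 in moderate drought against 4.60, 4.73 and 5.07 in moderate control on days 1-4. On days 3-5 of the severe course the values were 4.62, 4.82 and 4.86 in drought against 4.66, 4.84 and 4.94 in control.

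Gene by gene the late arms overlapped more often. All 12 drought libraries of days 9-12 lay below all 12 control libraries for 13 members in the moderate course, where 0.878% of the 12067 identifiers at or above 5 CPM did so. In the severe course this held for 40 members, where the background was 2.63%. Because these days chose the members, nothing is read from those counts. Comparisons across the courses on days 9-12 use libraries that chose the members too, so they are a description and nothing is read from them. Severe drought libraries of those days were below moderate controls in mean L for all 150 members, with a median difference of -0.50. Severe and moderate drought differed by a median of -0.01. Severe control lay a median of 0.10 above moderate control on the same days.

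How flat the early days were depends on the scaling. With library totals scaled by TMM (trimmed mean of M-values, which aligns the bulk of the genes), the members' median D was -0.11 on days 1-4 of the moderate course and -0.19 on days 3-5 of the severe course, and -0.40 and -0.55 on days 9-12. Of the 150 members, 69 stay within 0.2 of 0 on the flat days on that scale, and those 69 are also the ones that the rule would choose again. The label "late-only" holds for the total-count scale only.

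**Figure D2:**
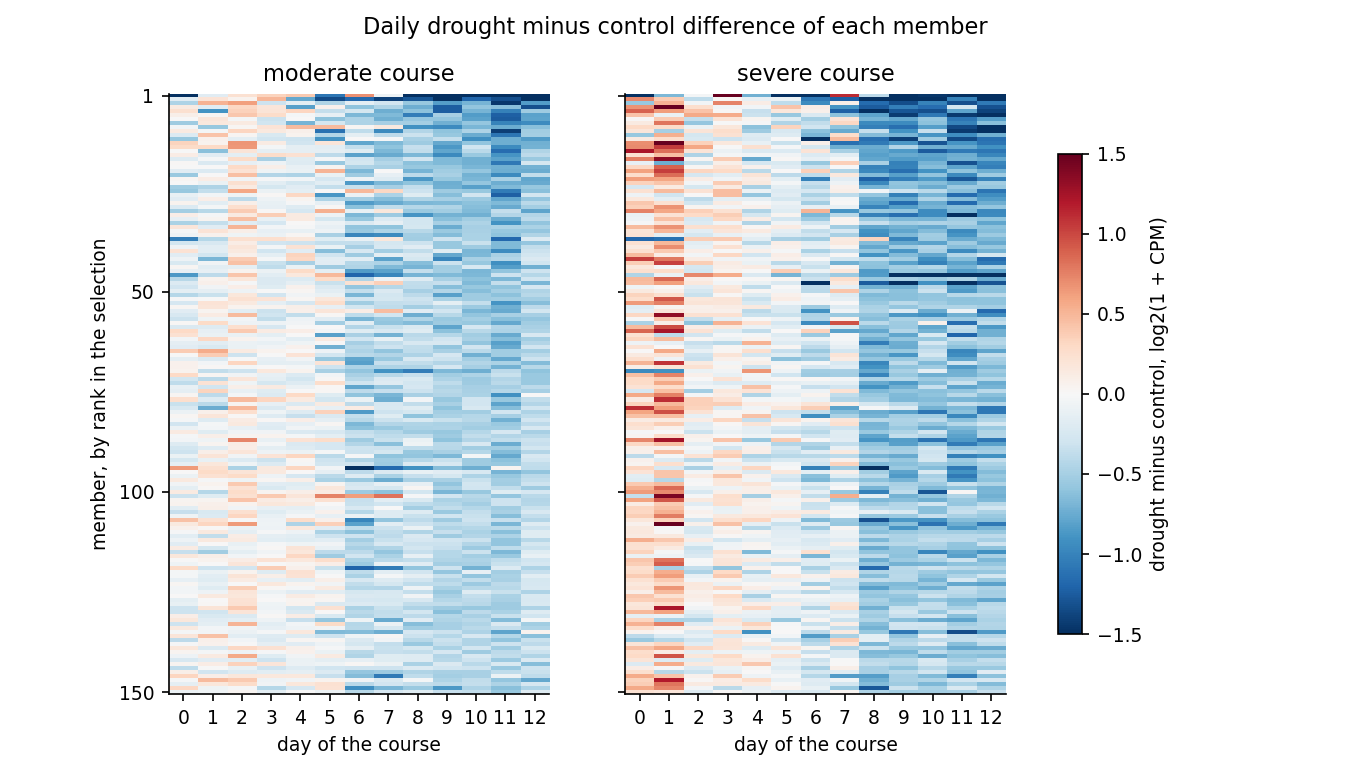
Drought minus control difference of log2(1 + CPM) for each of the 150 members (rows, in the order of the selection) on each day (columns) of the moderate and the severe course; blue is lower in drought, and the colour scale ends at -1.5 and 1.5. Moderate days 6, 7 and 8 have 141, 141 and 149 blue rows. Severe days 6, 7 and 8 have 131, 101 and 149, and blue is deepest there from day 8. Blue rows can be the majority earlier too, with 107 for moderate day 3 and 107 for severe day 5. They are the minority for moderate day 2 (54) and severe days 0 and 3 (29 and 48). Severe day 1 is mostly red on this scale of plain totals.

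Day by day, the median member D in the moderate course was -0.072, -0.035, 0.114, -0.077 and -0.032 on days 0 to 4. It was -0.12 on day 5, and then -0.413, -0.356 and -0.369 on days 6, 7 and 8. The number of members with a D below 0 was 102, 141, 141 and 149 on days 5 to 8. On the TMM scale of the tests the median log2 fold change was -0.121 on days 1-4, -0.261 on day 5 and -0.41 on day 6, so the step between day 5 and day 6 that plain totals show is smaller there. The severe course had medians of 0.238 on day 0, 0.409 on day 1 and -0.043 on day 2. The values of days 3, 4 and 5 were 0.106, -0.06 and -0.096. Days 6, 7 and 8 had -0.295, -0.132 and -0.647, with day 7 standing closer to control than day 6 and day 8 the farthest from it. The TMM scale of the tests gave a median of -0.214 on days 3-5, with 143 members below 0. Its medians on days 6, 7 and 8 were -0.319, -0.229 and -0.572, so days 6 and 7 stood little below the flat days there. On the TMM scale the medians of days 0, 1 and 2 were 0.123, 0.073 and -0.143, with 66 members below 0 on day 1 against 29 on plain totals, so the higher values of day 1 depend on the scaling.

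On days 5-8 of the moderate course the members were lower in drought. In the quasi-likelihood fit of edgeR on TMM-scaled totals, with p adjusted over 19338 genes by Benjamini and Hochberg, 124 of 150 members fell (82.7%), where 14.1% of all genes tested fell. Of the 150, 1 member rose (0.667%), against a background of 13.8%, and 25 did not pass. The median log2 fold change was -0.377 over the members and 0.005 over all genes tested, and 147 members were below 0. Without the libraries numbered 2, 81 members fell, while calls over all genes in either direction went from 5394 to 4064. The mean L over the members was 4.02, 4.32 and 4.75 in drought (lowest, median and highest of 12 libraries) against 4.45, 4.73 and 4.89 in control. The arms overlapped there, since 1 drought library of day 7 had 4.75 while the other 2 drought libraries of that day had 4.29 and 4.27. For no single member did all drought libraries of days 5-8 lie below all controls, which was so for 0.133% of identifiers at or above 5 CPM.

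LOC_Os03g29850 had the largest fall on those days. It had 4.54, 8.41 and 18.2 CPM in moderate drought (lowest, median and highest of 12 libraries), against 10.8, 22.4 and 48.4 CPM in moderate control. Of the drought libraries, 7 lay below every control library, and the log2 fold change was -1.41 (SE 0.30; edgeR, adjusted p = 0.00017). LOC_Os06g36390 was a low-count member, with 2.35, 4.09 and 10.2 CPM in drought against 5.16, 8.88 and 11.9 CPM in control. Its log2 fold change was -0.91 (SE 0.19; edgeR, adjusted p = 0.00011), and 9 of its 12 drought libraries lay below every control library. LOC_Os07g12340 was the member that rose, with 14.6, 31.3 and 71.0 CPM in drought against 17.1, 23.8 and 27.3 CPM in control. Its log2 fold change was 0.54 (SE 0.16; edgeR, adjusted p = 0.0069), and the adjusted p was 0.11 without the libraries numbered 3. On days 9-12 of the same course this member averaged 21.6 ± 4.33 CPM in drought and 29.0 ± 4.33 CPM in control (SD, n = 12 each), so its arms were in the opposite order there.

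On days 6-8 of the severe course 107 of 150 members fell (71.3%), where 11.2% of all genes tested fell, and 0 rose, where 11.3% of all genes rose (edgeR; 125 members had an unadjusted p under 0.05; DESeq2 on the compared libraries called 90 lower and 0 higher). The median log2 fold change was -0.376 over the members and -0.007 over all genes tested, with 148 members below 0. Without the libraries numbered 1 or those numbered 2, 58 and 54 members fell. Calls over all genes in either direction went from 4348 to 2198 and 1968 there. The mean L over the members was 4.20, 4.42 and 4.70 in drought (9 libraries) against 4.49, 4.81 and 5.00 in control. The 2 highest drought values, 4.70 and 4.65, were both of day 7. LOC_Os02g05840, chosen after its values were seen, was the only member with all drought libraries below all controls, which was so for 0.315% of identifiers at or above 5 CPM.

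The arms of those days lie in different library sets. Against moderate controls, in the same set, 105 members were lower in severe drought, where 14.2% of all genes tested were, with a median log2 fold change of -0.38, and 86 of them were also lower against severe controls. With the set difference estimated from the controls and taken out, the median was -0.30 and 20 members were called lower (13.3% of them), where 3.12% of all genes tested were. The set difference itself had a median of 0.129 over the members and 0.03 over all genes. It was estimated as severe control on the flat days minus severe control before them, less the same in moderate control. That estimate also holds any change of irrigated leaves over time that differs between the courses. Control libraries of the flat days helped to choose the members, so the estimate is not independent of the choice. The part of the set in the fall was not tested beyond these values.

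LOC_Os03g29850 again had the largest fall. Its values were 2.98, 4.25 and 7.17 CPM in severe drought (9 libraries), against 5.62, 15.7 and 37.3 CPM in severe control. On this course 7 of 9 drought libraries lay below every control library, with a log2 fold change of -1.81 (SE 0.38; edgeR, adjusted p = 0.00017). LOC_Os04g58280 had 24.5, 27.4 and 62.2 CPM in drought against 40.3, 82.3 and 110.7 CPM in control. Its log2 fold change was -1.09 (SE 0.25; edgeR, adjusted p = 0.00066), and against moderate controls it was -1.39 (edgeR, adjusted p = 1.1e-05). With the set difference taken out it was -0.79 with an adjusted p of 0.25. For LOC_Os03g29850 these alternatives gave -2.34 (edgeR, adjusted p = 7.2e-07) and -2.17 (edgeR, adjusted p = 0.018).

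**Figure D3:**
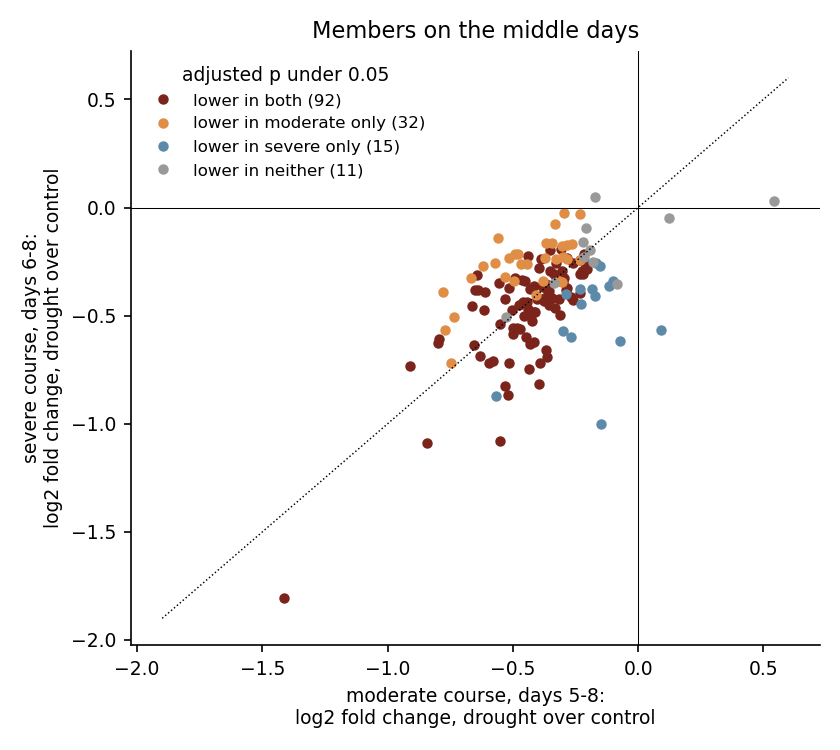
Log2 fold change of drought over control for each of the 150 members on days 5-8 of the moderate course (horizontal) and days 6-8 of the severe course (vertical), coloured by the calls at an adjusted p under 0.05; the dotted line marks equal values. Of the members, 92 were lower in both courses, 32 in the moderate course, 15 in the severe course and 11 in neither.

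The members were chosen for low values in both courses, so nothing is read from how many calls the courses share. Lower in both were 92 members, which is 74.2% of the 124 moderate calls and 86% of the 107 severe calls. Over all genes tested, 1041 were lower in both, which is 38.2% of the moderate and 48.2% of the severe calls. Among the 150 members as a whole, 71.3% were called in the severe course and 82.7% in the moderate course. The members' overlap is close to these base shares. A further 32 members were called in the moderate course alone and 15 in the severe course alone, and 11 in neither. Being called in 1 course alone is no test of a difference between them. That test, the severe minus the moderate drought effect on days 6-8, called 0 of 150 members in edgeR, where 0.646% of all genes were called. The severe arms lie in different library sets on those days and the moderate arms in the same set, so this contrast also holds the set difference. Unadjusted, 13 members had a p under 0.05, and DESeq2 called 0. The differences ranged from -0.97 to 0.45 on the log2 scale with a median SE of 0.164, and a p that misses the threshold does not show that the courses acted alike.

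**Figure D4:**
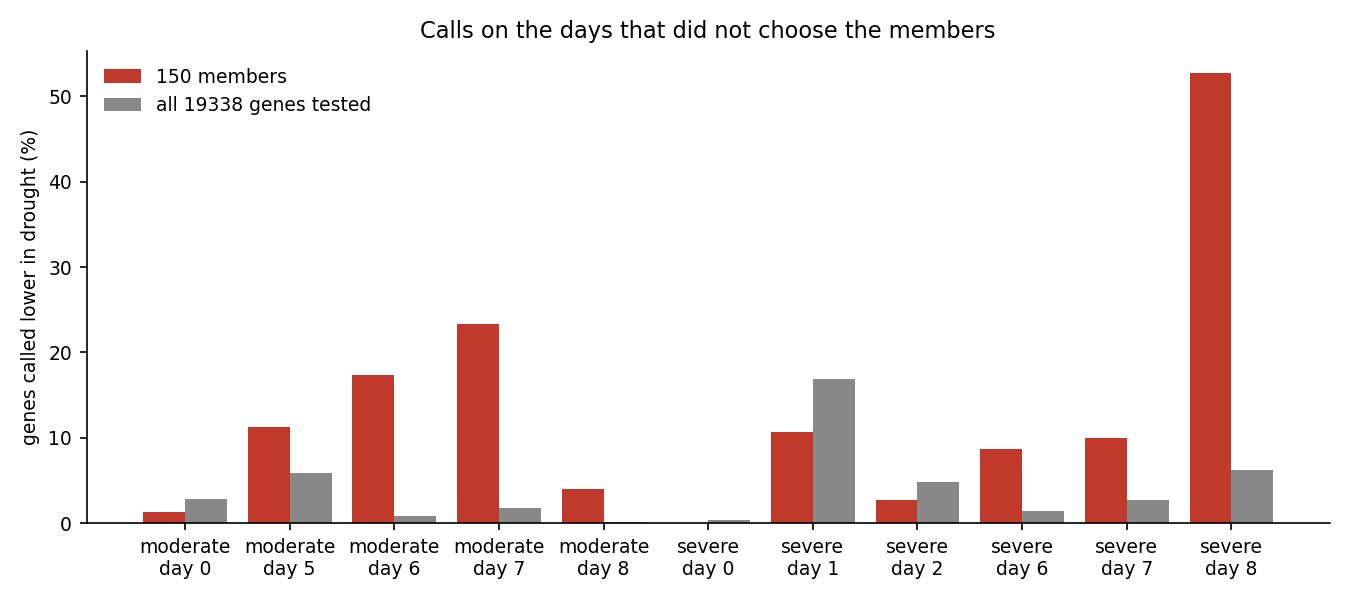
Percent of genes called lower in drought (edgeR, adjusted p under 0.05) among the 150 members (red) and among all 19338 genes tested (grey), on each single day that did not choose the members. The members' share stands above that of all genes on days 5-8 of the moderate course and 6-8 of the severe course, and below it on days 0-2 of the severe course and day 0 of the moderate course.

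On single days, with 3 libraries an arm, fewer members passed. In the moderate course 17 fell on day 5 (background 5.86%), 26 on day 6 (0.889%), 35 on day 7 (1.74%) and 6 on day 8 (0.129%). The counts do not follow the size of the change, since the members' median log2 fold change was -0.26, -0.41, -0.43 and -0.37 on days 5 to 8. In the severe course 13 fell on day 6 (background 1.47%), 15 on day 7 (2.74%) and 79 on day 8 (6.25%), with medians of -0.32, -0.23 and -0.57. Day 8 of the severe course was thus the single day with the most members called. The severe arms of days 6-8 lie in different library sets. Single days were not tested against moderate controls or with the set difference taken out. Whether the moderate drought effect grew from days 5-6 to days 7-8 was tested as a difference of effects: 0 members were called in edgeR and 0 in DESeq2, where 0% of all genes were called, and 0 members had an unadjusted p under 0.05.

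**Figure D5:**
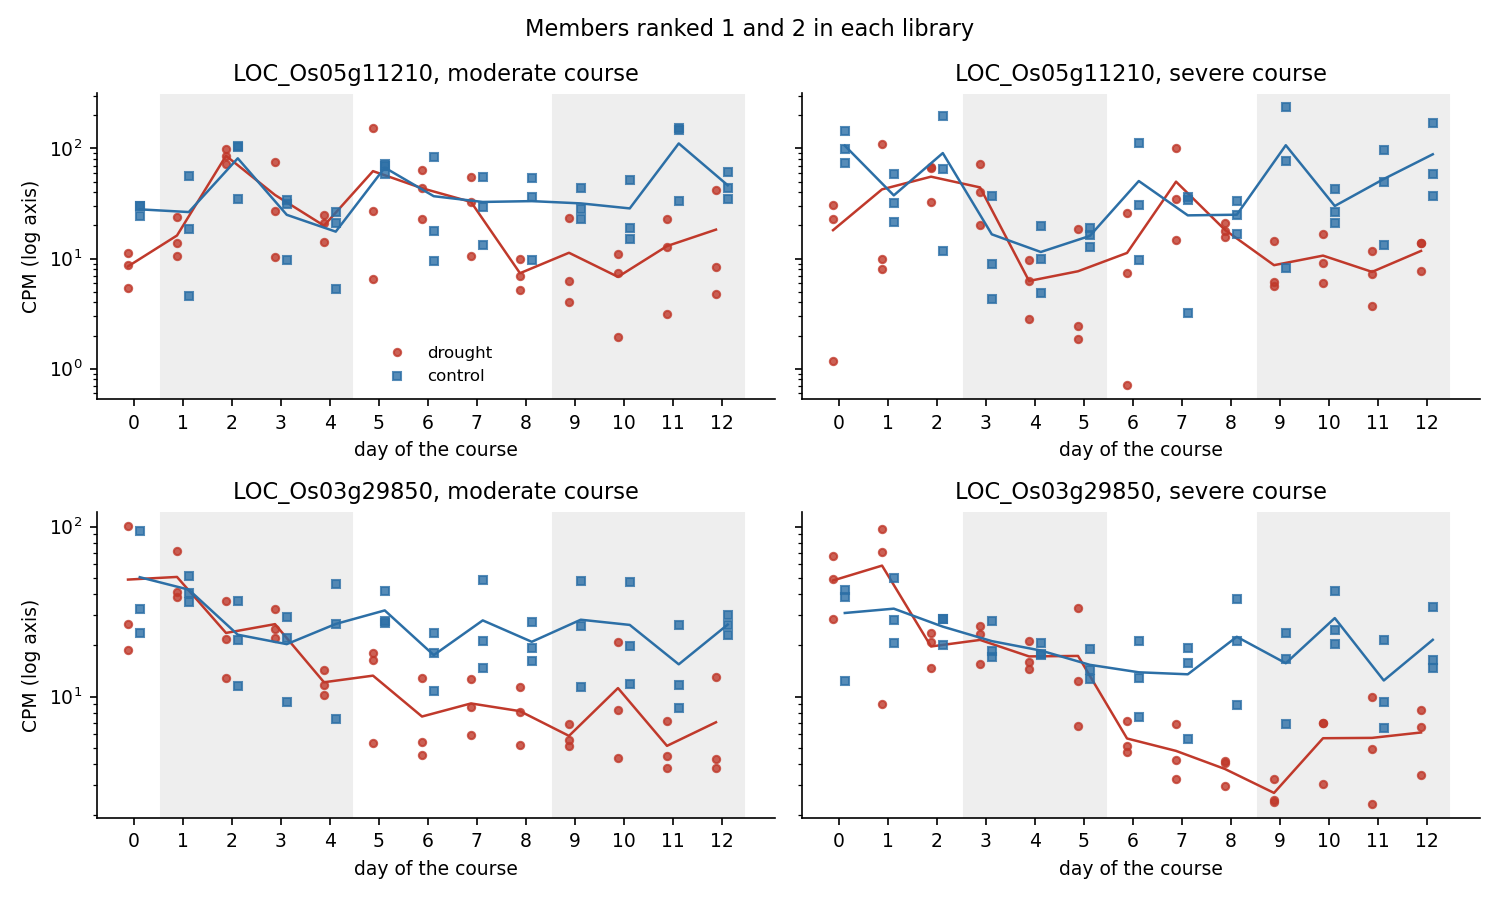
CPM on a log axis in each library (points) with daily means (lines) for LOC_Os05g11210 (top) and LOC_Os03g29850 (bottom), the members with the lowest values of the rule, in drought (red circles) and control (blue squares) of the moderate and the severe course. Grey bands mark the days that chose the members; LOC_Os05g11210 spreads widely within days, while the daily means of LOC_Os03g29850 are lower in drought than in control from day 4 of the moderate course and day 6 of the severe course on.

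The member that the rule ranked first, LOC_Os05g11210, varied widely between libraries of the same day. On days 9-12 it had 1.95, 7.92 and 41.8 CPM in moderate drought against 15.0, 39.1 and 152 CPM in moderate control. In the severe course it had 3.67, 8.42 and 16.7 CPM in drought against 8.22, 45.9 and 236 CPM in control. Its 3 moderate drought libraries of day 5 held 6.57, 153 and 26.9 CPM, against 58.8, 69.9 and 72.2 CPM in control. It was not called on the middle days, with a log2 fold change of -0.53 (SE 0.46; edgeR, adjusted p = 0.41) on days 5-8 of the moderate course and -0.51 (SE 0.54; edgeR, adjusted p = 0.55) on days 6-8 of the severe course. On day 0 it already had 11.3, 5.36 and 8.77 CPM in moderate drought against 29.7, 24.2 and 30.0 CPM in control (edgeR, adjusted p = 0.35). In the severe course its D was -3.138 on day 0, where the arms lie in different library sets and it was not called lower. The lowest daily D of days 9-12 in that course was -2.625, and on day 7 its D was 1.118.

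LOC_Os03g29850, ranked second, is given by day as a description, since changes from day to day were not tested. Its mean in moderate drought was 12.1, 13.3, 7.63, 9.10 and 8.20 CPM on days 4 to 8, against 26.7, 32.1, 17.5, 28.1 and 21.0 CPM in moderate control. In severe drought it was 17.2, 17.3, 5.66, 4.79 and 3.74 CPM over the same days, against 18.6, 15.4, 13.9, 13.5 and 22.5 CPM in severe control. On day 4, which helped to choose it, the moderate arms were thus already apart in their means, although control held values of 7.42, 46.1 and 26.7 CPM. On days 9-12 it averaged 7.31 ± 5.02 CPM in moderate drought and 24.2 ± 13.1 CPM in moderate control, and 5.06 ± 2.61 CPM in severe drought and 19.7 ± 10.5 CPM in severe control (SD, n = 12 each).

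Days 0-2 were tested in the same way, with fewer libraries than the middle days. On day 0, 2 members were lower in moderate drought (edgeR; background 2.78%) and 0 higher (1.51%). These were LOC_Os02g06910, with 43.3, 50.4 and 52.2 CPM in drought against 58.9, 71.4 and 73.9 CPM in control, and LOC_Os03g20180, with 48.3, 52.6 and 55.4 CPM in drought against 63.8, 67.1 and 73.2 CPM in control. Neither passed when any 1 replicate number was left out, nor without the moderate drought library in the higher set. On day 0 of the severe course 0 members were lower (edgeR; background 0.388%) and 1 was higher (0.76%). LOC_Os07g07050 had 75.8, 95.2 and 99.8 CPM in severe drought against 19.4, 46.9 and 58.6 CPM in severe control, a log2 fold change of 1.03 (SE 0.22; edgeR, adjusted p = 0.0036). The adjusted p was 0.13 without the libraries numbered 1. On day 0 the severe drought libraries lie in the higher set and the severe controls in the other one. The part of the set in this difference was not tested.

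On days 1-2 of the severe course members were called in both directions, near the share of all genes for falls and below it for rises. There 29 were lower in drought (edgeR; background 18.2%) and 20 higher (19.1%), with a median log2 fold change of -0.04. These are 19.3% and 13.3% of the members, and 22 and 25 members were called in either direction without the libraries numbered 1 or 3. Calls over all genes went from 7213 to 5038 and 5659 there. On day 1 alone 16 were lower (background 16.9%) and 31 higher (18.7%), while day 2 had 4 lower (4.8%) and 0 higher (3.39%). LOC_Os02g07060 had 9.26, 15.7 and 61.1 CPM in drought (lowest, median and highest of 6 libraries) against 8.02, 9.47 and 12.3 CPM in control, a log2 fold change of 0.78 (SE 0.19; edgeR, adjusted p = 0.00039). Without the libraries numbered 3 its adjusted p was 0.42. LOC_Os09g25100 had 3.63, 6.23 and 10.2 CPM in drought against 6.67, 8.40 and 13.3 CPM in control, a log2 fold change of -0.73 (SE 0.23; edgeR, adjusted p = 0.0066). Its adjusted p (edgeR) was 0.13 without the libraries numbered 2 and 0.077 with the set difference, estimated from drought libraries, taken out. Here too the arms lie in different library sets, with drought in the higher one. The set difference was here estimated from drought libraries, as days 3-5 minus days 6-8 of severe drought, less the same in moderate drought. That estimate also holds any change of drought leaves over time that differs between the courses, and days 3-5 helped to choose the members. With it taken out, 12 members (7 lower, 5 higher) were called, where 16.6% of all genes were.

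Change over time in single arms was compared within the moderate course. Between day 0 and days 5-8, 67 members fell in drought leaves (edgeR; background 9.31%) and 2 rose (9.14%), with a median log2 fold change of -0.34. Without the libraries numbered 2, 29 fell. In irrigated leaves 7 fell (background 3.01%) and 1 rose (1.78%), with a median of -0.04, and 4, 1 and 0 fell without the libraries numbered 1, 2 and 3. LOC_Os03g09900 fell in both arms. It had 2.61, 4.40 and 11.3 CPM in drought leaves of days 5-8, against 10.3, 11.8 and 34.4 CPM in those of day 0, with a log2 fold change of -1.93 (SE 0.28; edgeR, adjusted p = 2.8e-07). In irrigated leaves it had 4.40, 6.99 and 10.8 CPM on days 5-8, against 7.67, 13.3 and 30.1 CPM on day 0, with a log2 fold change of -1.23 (SE 0.29; edgeR, adjusted p = 0.0075). LOC_Os02g17780 rose in drought leaves, with 7.88, 15.0 and 23.9 CPM on days 5-8 against 4.56, 5.85 and 6.28 CPM on day 0, a log2 fold change of 1.5 (SE 0.34; edgeR, adjusted p = 9e-04). The fall of LOC_Os03g29850 in drought leaves from day 0 (log2 fold change -2.39) was -1.23 with an adjusted p of 0.10 without the day 0 library in the higher set, which held 101 CPM, against 26.6 and 18.8 CPM in the other 2.

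The 150 genes with the opposite late change, chosen by the same rule turned round, serve as a comparison. Their limit was shallower, since the last one taken had a smaller D of 0.1159, against a larger D of -0.3671 for the last member, so the sizes of change are not compared. On days 5-8 of the moderate course 124 members fell and 1 rose, while of the late risers 0 fell and 55 rose, where 14.1% of all genes fell and 13.8% rose. On days 6-8 of the severe course 107 members fell and 0 rose, against 0 falls and 45 rises among the risers, where 11.2% of all genes fell and 11.3% rose. On days 1-2 of the severe course 29 members were lower in drought and 20 higher, against 59 lower and 2 higher among the risers, where 18.2% of all genes were lower and 19.1% higher.

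Beyond the rule, the members' level, position and course over the groups were examined. Their mean level over all libraries had a median of 20.1 CPM, with a range of 5.09 to 10513 CPM, against a median of 30.2 CPM over the other identifiers kept. CPM is not divided by gene length, so these are shares of the counts and not levels per transcript. The member with the highest mean level was LOC_Os01g01340, chosen after its values were seen, at 8866 ± 1602 CPM in moderate drought and 11424 ± 714 CPM in moderate control on days 9-12, and at 8480 ± 1505 CPM in severe drought and 11268 ± 1044 CPM in severe control (SD, n = 12 each). The members lie on chromosome 1 (30), 2 (21), 3 (28), 4 (14), 5 (15), 6 (8), 7 (11), 8 (12) and 9 (11), as read from the identifiers. The largest departures from the other identifiers kept were chromosome 6, with 5.33% of members against 9.94%, and chromosome 1, with 20.0% against 15.8%. Adjacent identifiers occurred in 2 pairs, LOC_Os03g63700 with LOC_Os03g63710 and LOC_Os08g39770 with LOC_Os08g39780, whose log2 CPM correlated across the 52 group means with r of 0.737 and 0.953. The counting of reads that overlap neighbouring genes is not given in the sources used here.

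Members followed a common course to different degrees. Across the 52 group means, LOC_Os01g47550 and LOC_Os01g55650 were most like the mean of the other members, with r of 0.956 and 0.947, and LOC_Os06g50080 was least like it, with r of 0.168. These points share libraries and the choice of members, so the values are a description. LOC_Os01g47550 averaged 20.2 ± 6.22 CPM in moderate drought and 26.0 ± 5.47 CPM in moderate control on days 5-8, and 19.0 ± 3.25 CPM in drought and 27.9 ± 2.82 CPM in control on days 9-12 (SD, n = 12 each). On days 9-12 of the severe course it averaged 18.9 ± 4.16 CPM in drought and 32.3 ± 3.05 CPM in control. The SD of the 13 daily means of L had a median over the members of 0.265 in moderate drought and 0.189 in moderate control, and of 0.297 in severe drought and 0.211 in severe control. Over the other identifiers kept, the same medians were 0.13 in moderate drought and 0.114 in moderate control, and 0.137 in severe drought and 0.146 in severe control.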

How the data were processed

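The authors deposited 1 table of raw counts for 156 libraries of polyA RNA, made with a directional kit per the labels' protocols. The submitters' processing notes name STAR, featureCounts 2.0.0 and the build IRGSP-1.0. Neither the strand setting nor the handling of multi-mapping reads is given in the sources used here, and overlapping or near-identical genes may share counts. Of 55986 identifiers, 14573 have no count in any library. The table of names at hand matched 0 identifiers, and no genome was used, so no sequence is printed. Columns were matched to samples by name, 4 columns of no sample were left out and no columns were identical (smallest chi-square per gene within a group 9.69).

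The members and lists were chosen with earlier results of these data known. Tests used edgeR 4.0.16 in R 4.3.3: filterByExpr (minimum count 10, minimum total 15), TMM, 52 groups in 1 quasi-likelihood fit with 104 residual degrees of freedom, and Benjamini-Hochberg adjustment over 19338 genes at 0.05. Rose and fell mean an adjusted p under 0.05. SE is the size of the log2 fold change divided by the root of its F value. CPM and L use the plain column totals, while tests use TMM-scaled ones. Named members are the 2 with the lowest value of the rule, those at its limit, and at most the 2 lowest and 2 highest fold changes among members called in each comparison. The methods were tested on simulated counts. DESeq2 1.42.0, other scalings, filters, replicate blocks and left-out libraries were alternatives. Taking out the library set, comparison with moderate controls and the membership settings were alternatives too. Days singled out, single libraries left out and members chosen on TMM-scaled totals were added after seeing the data.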

Additional observations from a re-analysis of the deposited data

How the results depend on the processing

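Of 196 alternative values for 19 named results, 55 lost their call and 0 reversed, most of them on days 0-2 or in comparisons with day 0. Of 105 alternative counts, 34 moved. On days 5-8 of the moderate course between 81 and 101 members were called lower when 1 replicate number was left out, and 103 when the members were chosen on TMM-scaled totals. On days 6-8 of the severe course the range was 54 to 98, with 20 after the set difference was taken out and 92 with members chosen on TMM-scaled totals. Calls over all genes in either direction were 5394 and 4348 in these 2 comparisons. Without 1 replicate number they were 2855 to 4064 and 1968 to 5021. On days 1-2 the members called in either direction numbered 22 to 37 without 1 replicate number, 12 with the set difference from drought libraries taken out and 4 on day 2 alone. On day 0 of the moderate course the call count was 1 with DESeq2 size factors, 0 with no low-count filter, 11 with DESeq2, 0 (all 3 left-out numbers) and 0 without the higher-set library. On day 0 of the severe course it was 0 with edgeR on the compared libraries, 2 with DESeq2 and 0 to 3 without 1 number. The severe minus moderate effect had 1 call without the moderate drought library of day 7 numbered 3. Irrigated leaves on days 5-8 against day 0 had 4 calls with no filter, 19 with DESeq2 and 0 to 4 without 1 number, and drought leaves 29 to 58 falls. Membership kept 69 of 150 with TMM-scaled totals, 59 with a flat-day limit of 0.1 and 95 to 110 without 1 replicate number. The causes of these moves were not tested.

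The replicate numbers do not pair the samples: of 78 same-numbered pairs of drought and control, 25 had deviations correlated above 0.1 (median -0.01, range -0.79 to 0.46), and 20 of the pairs correlated best with their own number. With a replicate block within day, member calls were 112 on days 5-8 of the moderate course, 34 on days 6-8 of the severe course, 28 on days 1-2 and 7 on day 0 of the moderate course. Calls over all genes in either direction went from 5394 to 4243, from 4348 to 802 and from 7213 to 4656 in the first 3 of these. With 1 replicate block over all days the member calls were 126, 113, 50 and 3, and 3 on day 0 of the severe course. With 3 libraries an arm, single days limit what could be detected.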
